A study of Mus musculus with 28 samples.

Results

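The genes described here are those of the mouse proteasome, taken as every gene whose symbol is Psm followed by a letter from a to g and a number. There were 48 such genes among the 24421 genes counted in each library. The symbol rule used no measured value, though it was chosen with earlier results of these data known. The study sorted dendritic cells (DCs) by flow cytometry from spleens of untreated C57Bl/6 mice aged 6 to 12 weeks and measured gene expression by bulk RNA-seq. All mice carried the loxP-flanked Irf8 allele on both chromosomes (Irf8fl/fl). Without Cre, 8 libraries each came from conventional type 1 DCs sorted as CD24+ (cDC1_WT), from conventional type 2 DCs sorted as CD172a+ (cDC2_WT) and from plasmacytoid DCs (pDC_WT). A further 4 libraries came from plasmacytoid DCs of Irf8fl/fl Itgax-cre mice (pDC_TG), in which Cre is expressed from regulatory sequence of Itgax, the gene of CD11c.

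The proteasome degrades proteins tagged with ubiquitin. Its core particle, the 20S, is a barrel of alpha and beta rings with the catalytic sites on the beta subunits Psmb5, Psmb6 and Psmb7. The 19S cap recognises and unfolds substrates. In immune cells, and after interferon, the immunosubunits Psmb8, Psmb9 and Psmb10 can take the places of Psmb5, Psmb6 and Psmb7, and the activator PA28, made of Psme1 and Psme2, can bind the core. This form is known for producing peptides for MHC class I, and cDC1 are known for presenting antigen on MHC class I to CD8 T cells.

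Libraries held 17299285 to 30787679 gene counts, of which the proteasome genes took 0.639% to 1.16%. Levels are CPM, the read count of a gene relative to the size of its library, scaled with TMM, a method that sets library sizes from genes that change little. Irf8 itself was at 1166 to 1787 CPM in pDC_TG and at 5379 to 6537 CPM in pDC_WT, so the targeted transcript was lower in every pDC_TG library (log2 fold change -2.07 ± 0.13, SE, edgeR adjusted p = 4.43e-13). Sums of pDC, cDC1 and cDC2 markers followed the sort labels. Summed pDC markers were at 8521 to 11631 CPM in pDC_TG, 8836 to 11660 CPM in pDC_WT and at most 109.5 CPM in either cDC group. The similar pDC sums hide opposite changes. In pDC_TG against pDC_WT, 2 of the 8 pDC markers were called higher and 2 lower, where 7.72% and 7.04% of all genes tested were. Klk1 was at 183 to 252 CPM in pDC_TG against 686 to 1305 CPM in pDC_WT, and Dntt at 471 to 510 against 157 to 273 CPM. Summed cDC1 markers were 3758 to 5084 CPM in cDC1_WT, 413 to 775 CPM in cDC2_WT, 449 to 530 CPM in pDC_WT and 620 to 950 CPM in pDC_TG, and summed cDC2 markers were 3895 to 4484 CPM in cDC2_WT and up to 1863 CPM elsewhere. Most of the cDC1 sum in pDC_TG was Cd8a, at 459 to 852 CPM against 226 to 322 CPM in pDC_WT. Clec9a went the other way, at 3.61 to 10.2 against 60.8 to 124 CPM. Of the 8 cDC1 markers, 2 were called higher and 3 lower in pDC_TG than in pDC_WT, against the same shares of all genes. The 8 cDC2 markers had 3 called higher and 2 lower in this comparison. Tmem176b was at 181 to 292 CPM in pDC_TG against 22.9 to 52.7 CPM in pDC_WT, and Tmem176a at 80.2 to 145 against 9.67 to 21.7 CPM. Itgam was at 19.1 to 36.5 against at most 1.75 CPM, while Clec10a was lower, at 27.0 to 53.0 against 215 to 323 CPM. Summed neutrophil markers were 195.9 CPM in pDC_TG replicate 4 and 0.230 to 4.59 CPM in the other pDC_TG libraries. Summed plasma cell markers were 1034 to 1303 CPM in pDC_TG and 57.8 to 136 CPM in pDC_WT, and most of that sum was Sdc1, at 873 to 1221 CPM in pDC_TG. Of the other genes of that list, Prdm1 stood at 51.4 to 76.6 CPM in pDC_TG against 3.22 to 9.69 CPM in pDC_WT, and Jchain at 21.1 to 84.9 against 3.26 to 77.3 CPM. Tnfrsf17 was at most 0.416 CPM in either group, and Derl3 was at most 0.422 CPM in pDC_TG against 0.550 to 3.49 CPM in pDC_WT. T cell markers summed to 20.8 to 27.9 CPM in pDC_TG against 4.24 to 13.5 CPM in pDC_WT, and NK cell markers to 1.498 to 2.08 CPM against at most 0.748 CPM. Most of the T cell sum in pDC_TG was Cd5, at 18.1 to 25.2 CPM against 1.43 to 10.1 CPM in pDC_WT. Cd3e, Cd3d and Cd3g each averaged at most 0.496 CPM in either pDC group. Summed B cell markers overlapped between the groups, at 117 to 151 CPM against 69.4 to 120 CPM. Most of that sum was Cd79b, at 78.5 to 100 CPM in pDC_TG against 60.1 to 96.7 CPM in pDC_WT. Cd22 did not overlap, at 36.8 to 45.8 against 0.263 to 5.71 CPM. Of the 6 B cell markers tested, 1 was called higher and 0 lower, against the same shares of all genes. Summed macrophage markers were 436 to 528 CPM in cDC2_WT, 77.1 to 141 CPM in cDC1_WT, 2.32 to 10.4 CPM in pDC_WT and 2.91 to 5.82 CPM in pDC_TG. Most of the cDC2_WT sum was Adgre1, at 321 to 410 CPM. Against pDC_WT, 5 of the 6 macrophage markers were called higher in cDC2_WT and 4 in cDC1_WT, where 28.8% and 30.6% of all genes tested were. The part of these other-cell markers in the proteasome values was not tested, except where values without pDC_TG replicate 4 are given. In bulk RNA, fewer cells of a type and less RNA per cell cannot be told apart, and p-values measure only the spread between these libraries, which may be technical in part, since the labels number them without saying that each is a separate animal. The study's design text speaks of 4 replicates, whereas 8 libraries are labelled in each control group, and each was counted here as 1 replicate. The labels do not give the markers used to sort pDC.

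Promoter sequence was at hand for 40 of the 48 genes (RefSeq, GRCm38.p6, 250 bases before to 50 bases after each start site). Short motifs were searched on both strands. These were GAAA-NN-GAAA, the core of the interferon-stimulated response element bound by interferon regulatory factors such as Irf8 and Irf1, in 3.44% of all promoters in the table, GGAA-NN-GAAA, the composite of ETS and IRF sites, in 2.72%, TTCNNNGAA, the gamma-activated site, in 8.3%, and TGACNNNGC, the antioxidant response type element, in 12.4%. The sequences below belong to genes with contrasting values in the sections that follow, with the match in capitals. Psmb8 and Psme1 fell in pDC_TG, Psmd4 rose, and Psmb5 and Psmb6 did not pass the test.
Psmb8, chr17:34198088-34198117, plus strand, within an annotated Psmb8 exon, TTCNNNGAA: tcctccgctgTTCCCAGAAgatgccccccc
Psme1, chr14:55578493-55578522, plus strand, within an annotated Psme1 exon, GAAA-NN-GAAA overlapping GGAA-NN-GAAA on the opposite strand: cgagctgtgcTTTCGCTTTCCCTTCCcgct
Psmd4, chr3:95042615-95042734, minus strand, upstream of the start and outside annotated exons, GAAA-NN-GAAA on the opposite strand: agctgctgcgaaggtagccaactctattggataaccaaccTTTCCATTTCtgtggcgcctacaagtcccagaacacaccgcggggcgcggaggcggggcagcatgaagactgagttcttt
Psmb5, chr14:54618023-54618052, minus strand, upstream and outside annotated exons, TGACNNNGC: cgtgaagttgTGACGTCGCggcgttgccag
Psmb6, chr11:70525237-70525356, plus strand, upstream and outside annotated exons, TGACNNNGC: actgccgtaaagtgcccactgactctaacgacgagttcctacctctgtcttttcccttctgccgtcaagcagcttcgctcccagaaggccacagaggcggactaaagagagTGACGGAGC

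Counted from the start site as position 0, the Psmb8 match lay at -97 to -89, the Psmd4 match at -80 to -71, the Psmb5 match at -47 to -39 and the Psmb6 match at -9 to -1. In Psme1 the matches lay at 9 to 18 and 15 to 24, after the start site and within an annotated Psme1 exon. Over the 40 members with a promoter, GAAA-NN-GAAA was found in 5 (Psmb3, Psmd4, Psmd9, Psme1 and Psmg4), GGAA-NN-GAAA in 2 (Psmc2 and Psme1), TTCNNNGAA in 3 (Psmb8, Psmd2 and Psmg1) and TGACNNNGC in 6 (Psmb5, Psmb6, Psmc6, Psmd12, Psmd9 and Psme4). Counted by gene, as the members are, the shares over all genes in the table were 3.99%, 3.16%, 9.55% and 14%. The windows of Psmb9, Psmb10 and Psme2 held none of these letters. On the chromosomes, Psmb8 (17:34197721-34201454) and Psmb9 (17:34181987-34187764) lie close together in the MHC region beside the peptide transporter gene Tap1, whereas Psmb10 lies on chromosome 8 (105935735 to 105938444). Psme1 (14:55578123-55581529) and Psme2 (14:55587441-55591113) are neighbours on chromosome 14, which also holds Psmb5 (14:54614119-54618022).

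The first comparison set pDC_TG against pDC_WT, for pDC with and without deletion of Irf8. Every pDC_TG library came from mice with Itgax-cre and every control from mice without Cre. Effects of the deletion and of Cre itself therefore cannot be told apart. Of the 48 proteasome genes, 1 rose, 5 fell and 42 did not pass (edgeR's quasi-likelihood test, Benjamini-Hochberg adjusted p below 0.05 over 13159 genes). The members called made up 12.5% of the 48, against 14.8% of all genes tested, 7.72% higher and 7.04% lower, so the share of members called was near the background. Among Psmb8, Psmb9, Psmb10, Psme1 and Psme2, 3 fell and 2 did not pass, with a median log2 fold change (log2FC) of -0.30. Among the other 43 members, 1 rose, 2 fell and 40 did not pass, with a median of 0.04, and the median over all genes tested was 0. The 14 constitutive 20S subunits had 0 calls with edgeR, 0 with DESeq2 and 0 at an unadjusted p below 0.05.

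Psmb8, the immunosubunit that replaces Psmb5, stood at 688, 709, 760 and 814.1 CPM in the pDC_TG libraries and at 814.3, 972 and 1027 CPM (lowest, median, highest) in pDC_WT. Every pDC_TG library was below every pDC_WT library, by a narrow margin at the closest pair, and the log2FC was -0.36 ± 0.08 (SE, adjusted p = 9.13e-04 with edgeR). Psme2, the beta subunit of PA28, stood at 195, 208, 262 and 318 CPM in pDC_TG and at 288, 354 and 436 CPM in pDC_WT. The groups overlapped through the highest pDC_TG library, and the log2FC was -0.54 ± 0.13 (edgeR adjusted p = 0.00442). About 82.5% of the Psme2 transcript is near-identical to Psme2b, which took 0.319 to 1.36 CPM in the pDC libraries, so reads could be split between them. Psme1, the alpha subunit of PA28, stood at 266, 284, 261 and 290 CPM in pDC_TG replicates 1 to 4 and at 296, 350 and 363 CPM in pDC_WT. These groups did not overlap, and the log2FC was -0.30 ± 0.08 (edgeR adjusted p = 0.00676). Psmb8 and Psme1 were the 2 members whose libraries did not overlap in this comparison, both lower, where 4.81% of all genes tested were lower without overlap (9.71% in either direction and 4.9% higher). With pDC_WT replicates 5 to 8 alone, Psme1 did not pass (edgeR adjusted p = 0.0707).

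The other immunosubunits did not pass. Psmb9, which replaces Psmb6, stood at 247, 284, 355 and 329 CPM in pDC_TG and at 295, 364 and 449 CPM in pDC_WT (log2FC -0.27 ± 0.10, edgeR adjusted p = 0.072). Psmb10, which replaces Psmb7, stood at 242, 250, 270 and 255 CPM in pDC_TG and at 246, 295 and 357 CPM in pDC_WT (log2FC -0.25 ± 0.09, edgeR adjusted p = 0.0739). Both sets of libraries overlapped. Psmb9 passed without pDC_WT replicate 6 (adjusted p = 0.0300) or without pDC_TG replicate 3 (0.0302), and Psmb10 passed without pDC_WT replicate 5 (0.0288) and with DESeq2 (0.0481).

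None of the 3 constitutive catalytic subunits passed. Psmb5, with the chymotrypsin-like site, averaged 154 ± 22.6 CPM in pDC_TG (SD, n = 4) and 160 ± 15.5 CPM in pDC_WT (n = 8), a log2FC of -0.05 ± 0.10. Psmb6, with the caspase-like site, averaged 213 ± 41.6 and 208 ± 26.3 CPM, a log2FC of 0.04 ± 0.12. Psmb7, with the trypsin-like site, averaged 91.7 ± 10.9 and 89.2 ± 7.43 CPM, a log2FC of 0.04 ± 0.09. The signs of these 3 values turned when pDC_TG replicate 1 (Psmb5) or 3 (Psmb6 and Psmb7) was left out.

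**Figure D1:**
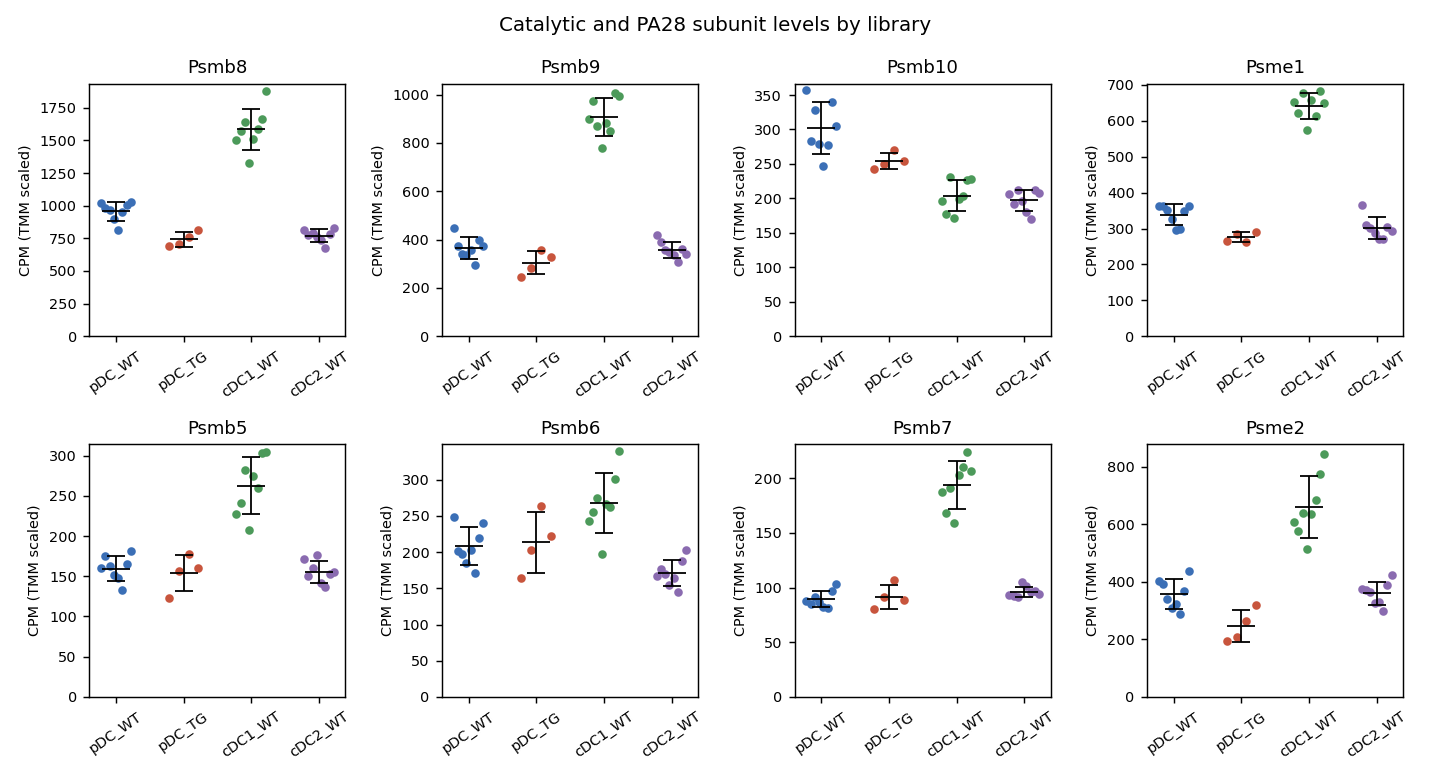
Levels of the 3 immunosubunits, the 3 constitutive catalytic subunits and the PA28 subunits, in TMM-scaled CPM on the vertical axis from 0, by group on the horizontal axis, with 1 point a library and bars for mean and SD. For Psmb8 the 4 pDC_TG libraries sit between 688 and 814.1 CPM, below all pDC_WT libraries, and Psmb10 is the only gene of the 8 with its highest mean in pDC_WT.

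Psmd4, Psmd7 and Psmd1 of the 19S were called. Psmd4, a ubiquitin receptor of the cap, stood at 147, 173, 166 and 185 CPM in pDC_TG and at 122, 131 and 164 CPM in pDC_WT, so most pDC_TG libraries lay above the highest pDC_WT library and 1 lay within its range. It rose by a log2FC of 0.30 ± 0.08 (edgeR adjusted p = 0.0131). The highest value was in pDC_TG replicate 4, the library with neutrophil transcripts, and without it the log2FC was 0.25 (edgeR adjusted p = 0.0800). With pDC_WT replicates 1 to 4 alone Psmd4 did not pass either (adjusted p = 0.142). Psmd7, the partner of the deubiquitinase Psmd14, averaged 80.3 ± 4.24 CPM in pDC_TG and 93.3 ± 6.05 CPM in pDC_WT (log2FC -0.22 ± 0.07, edgeR adjusted p = 0.0363). Psmd1, a scaffold of the cap, averaged 108 ± 11.7 and 129 ± 8.63 CPM (log2FC -0.25 ± 0.08, edgeR adjusted p = 0.0398). The groups overlapped for both, and both calls were lost when no cDC library entered the fit (adjusted p = 0.143 for Psmd7 and 0.0951 for Psmd1). Leaving out single libraries ended the Psmd7 call in 5 of the 12 cases and the Psmd1 call in 7. Against a 1.5-fold change, none of the 6 calls passed (edgeR's glmTreat).

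**Figure D2:**
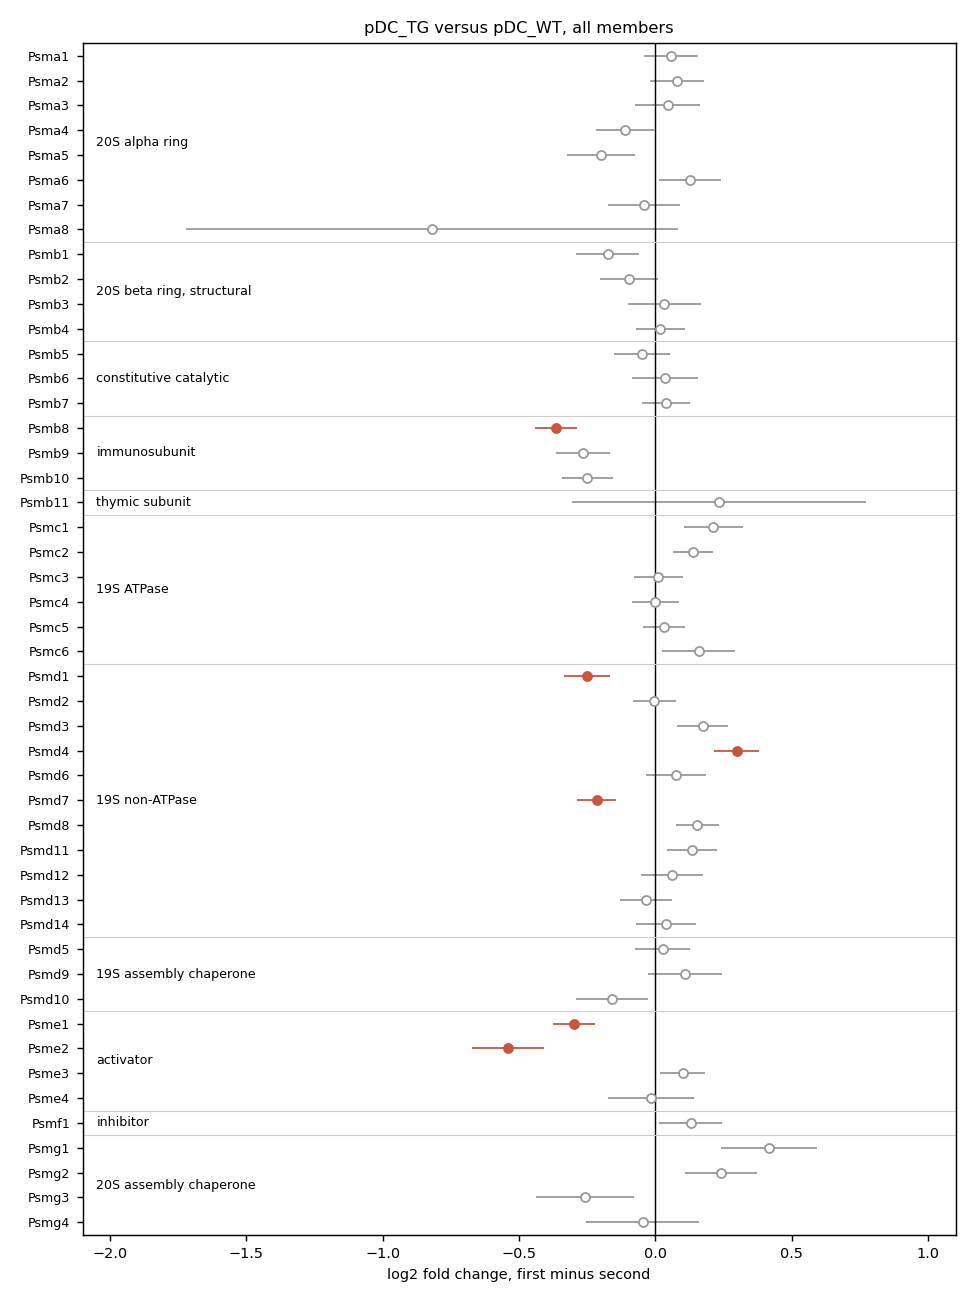
Log2 fold changes of all 48 members between pDC_TG and pDC_WT on the horizontal axis, ordered by role on the vertical axis, with bars for the standard error and filled points for genes past the test. The 6 filled points are Psmd1, Psmd4, Psmd7, Psmb8, Psme1 and Psme2, and Psma8 and Psmb11, which were near 0 CPM, have the widest bars.

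The balance of each immunosubunit against the subunit it replaces was followed as the ratio of their read counts within a library, which does not depend on scaling between libraries. Since the ratio does not allow for transcript length, it is compared between groups only. Psmb8 to Psmb5 averaged 6.02 ± 0.540 in pDC_WT and 4.87 ± 0.580 in pDC_TG (SD, n = 8 and 4). The pDC_TG libraries had 5.59, 4.53, 4.29 and 5.07, and 1 of them reached the pDC_WT range, which began at 5.50. Psmb9 to Psmb6 averaged 1.76 ± 0.0966 in pDC_WT and 1.43 ± 0.0735 in pDC_TG. The pDC_TG libraries had 1.5, 1.40, 1.34 and 1.48, and the highest of them was below the lowest pDC_WT library (1.55). Psmb10 to Psmb7 averaged 3.39 ± 0.351 in pDC_WT and 2.79 ± 0.203 in pDC_TG, and the highest pDC_TG value of 3.02 overlapped the lowest pDC_WT value of 2.97. No test was made of these ratios.

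Between the control populations the ratio of Psmb10 was further apart than between the pDC groups, as was that of Psmb9 in pairs with cDC1_WT. That of Psmb8 was not. Psmb9 to Psmb6 was 3.43 ± 0.348 in cDC1_WT, with its lowest library at 2.94, above the highest library of pDC_WT (1.86) and of cDC2_WT (2.50). In cDC2_WT it was 2.11 ± 0.239, with a range from 1.69 that overlapped that of pDC_WT. Psmb10 to Psmb7 was 1.06 ± 0.0771 in cDC1_WT and 2.06 ± 0.216 in cDC2_WT, and the highest cDC1_WT library (1.21) was below the lowest of cDC2_WT (1.78) and of pDC_WT. Psmb8 to Psmb5 was 6.07 ± 0.441 in cDC1_WT, with a range that overlapped that of pDC_WT, and 4.96 ± 0.317 in cDC2_WT, whose highest library (5.32) was below the lowest of cDC1_WT (5.49) and of pDC_WT.

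**Figure D3:**
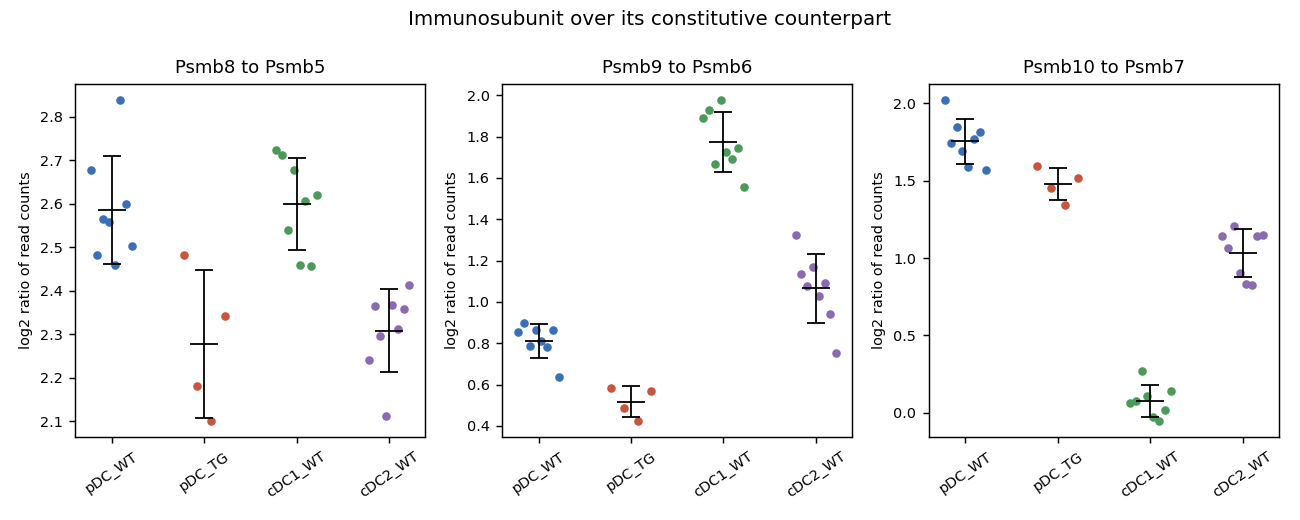
Log2 ratio of read counts of each immunosubunit over its constitutive counterpart on the vertical axis, by group, with 1 point a library and bars for mean and SD. For Psmb9 to Psmb6 the cDC1_WT libraries lie above all others and the pDC_TG libraries below all pDC_WT libraries, and for Psmb10 to Psmb7 the cDC1_WT libraries lie near 0.

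The second comparison set cDC1_WT against pDC_WT. Of the 48 members, 36 were higher in cDC1, 2 were lower and 10 did not pass, or 79.2% called where 60.9% of all genes tested were called (30.6% higher and 30.3% lower). The median log2FC was 0.42 over the members and -0.03 over all genes tested. The libraries did not overlap for 21 higher and 2 lower members, where 16% and 14.3% of all genes did so (30.3% in either direction). With scaling by total counts alone, which moves the median of all genes by -0.25 on the log2 scale, the split was 23 higher and 5 lower. Of the 13159 genes tested, 3072 were higher and 5327 lower with that scaling. The 3 comparisons with pDC_WT share those 8 libraries.

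Psmb9 had the largest rise among the immunosubunits. It stood at 780, 891 and 1008 CPM in cDC1_WT and at 295, 364 and 449 CPM in pDC_WT, with no overlap and a log2FC of 1.31 ± 0.08 (edgeR adjusted p = 8.22e-15). Psmb8 stood at 1329, 1580 and 1875 CPM, also above every pDC_WT library (log2FC 0.73 ± 0.06, edgeR adjusted p = 1.09e-11). Psmb10 went the other way, at 172, 201 and 230 CPM in cDC1_WT against 246, 295 and 357 CPM in pDC_WT, with no overlap (log2FC -0.57 ± 0.08, edgeR adjusted p = 1.41e-07). The other gene that was lower in cDC1 was Psmd9, a chaperone of 19S assembly, named here because it completed the count of 2 (23.1 ± 3.05 against 34.2 ± 3.63 CPM, log2FC -0.57 ± 0.11, edgeR adjusted p = 6.14e-05).

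All 4 activator genes were higher in cDC1 without overlap. Psme1 stood at 576, 651 and 683 CPM and Psme2 at 515, 636 and 844 CPM in cDC1_WT, for log2FC of 0.92 ± 0.06 and 0.89 ± 0.11. Psme3, whose product forms a nuclear PA28 ring, averaged 262 ± 11.8 against 154 ± 21.5 CPM. Psme4, which encodes the activator PA200, stood at 40.3, 48.3 and 65.5 CPM against 20.1, 30.8 and 40.15 CPM. The catalytic subunits were higher as well, Psmb7 at 159, 197 and 224 CPM against 81.7, 87.2 and 103 CPM (log2FC 1.12 ± 0.07, edgeR adjusted p = 2.56e-14), Psmb5 by a log2FC of 0.72 ± 0.08 and Psmb6 by 0.36 ± 0.10. Psmb5 and Psmb7 did not overlap between the groups, whereas Psmb6 did, and Psmb6 did not pass with total counts alone (edgeR adjusted p = 0.301) or with replicates 1 to 4 alone (0.22).

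By role, 13 of the 14 constitutive 20S subunits and 14 of the 17 subunits of the 19S were higher in cDC1 and 0 of either were lower with edgeR, with DESeq2 or at an unadjusted p below 0.05. Further members with the smallest adjusted p were the alpha ring genes Psma3 (570 ± 85.6 against 271 ± 41.1 CPM, log2FC 1.07), Psma1 (0.84) and Psma4 (0.61), and Psmb4 of the beta ring (0.62). From the 19S they were the deubiquitinase Psmd14 (237 ± 21.8 against 139 ± 20.9 CPM, log2FC 0.78), Psmc1 (0.57), Psmd13 (0.47), Psmc3 (0.43) and Psmd7 (0.38). Of the 3 chaperones of 19S assembly 0 were called higher with edgeR, with DESeq2 or at an unadjusted p below 0.05, with log2FC from -0.57 to 0.10, while 3 of 4 chaperones of 20S assembly (Psmg1, Psmg3 and Psmg4) were higher. Psmf1, an inhibitor of the 20S, was at 45.3 and 45.8 CPM and did not pass.

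The third comparison set cDC2_WT against pDC_WT, where 7 members were higher, 13 lower and 28 did not pass. That is 41.7% of members called where 57.1% of all genes tested were called (28.8% higher and 28.3% lower), with a median log2FC of -0.03 over the members and -0.01 over all genes. Libraries were apart for 3 higher members (Psma1, Psme3 and Psme4) and 2 lower members (Psmb10 and Psmd9), where 15.6% and 13.7% of all genes were (29.4% in either direction). With total counts alone, which moves the median of all genes by -0.15, the split was 3 higher and 25 lower. Under that setting 3108 of the 13159 genes tested were higher and 4542 lower. Summed transcripts of 7 dissociation genes, Fos and Jun among them, stood at 14394 to 19366 CPM in cDC2_WT, 5887 to 13065 CPM in cDC1_WT and 3057 to 5834 CPM in pDC_WT, and their part in these differences was not tested.

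Of the immunosubunits, Psmb10 was lower at 170, 201 and 213 CPM (log2FC -0.62 ± 0.08, edgeR adjusted p = 3.33e-08). Psmb8 was lower at 677, 778 and 830 CPM, with 1 pDC_WT library inside that range (log2FC -0.31 ± 0.06, edgeR adjusted p = 6.38e-05). Psmb9, at 308, 353 and 418 CPM, lay within the pDC_WT range and did not pass (log2FC -0.03 ± 0.08). Psme1 was lower by a small step (log2FC -0.17 ± 0.06, edgeR adjusted p = 0.0191), which did not pass in a fit of these groups alone (0.0694) or without cDC2_WT replicate 5 (0.0609). Psme2 did not pass at 297, 369 and 424 CPM, with a log2FC of 0.01 ± 0.11 that turned negative with total counts alone.

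The nuclear activator Psme3 (213, 225 and 235 CPM against 120, 152 and 187 CPM) and Psme4 (40.24, 47.1 and 58.03 against 20.1, 30.8 and 40.15 CPM) were higher in cDC2, with log2FC of 0.54 ± 0.07 and 0.63 ± 0.13 and no overlap. In the alpha ring Psma1 (log2FC 0.45) and Psma3 (0.33) were higher and Psma5 (-0.35) was lower, and in the beta ring Psmb1 was lower (-0.33). Among the catalytic subunits Psmb6 was lower (log2FC -0.28 ± 0.10, edgeR adjusted p = 0.0149), and Psmb5 (-0.04) and Psmb7 (0.11) did not pass. Psmd9 (19.7 ± 2.63 CPM, log2FC -0.80 ± 0.11), the assembly chaperone Psmg4 (-0.65), the inhibitor Psmf1 (-0.37) and Psmd7 (-0.26) were lower. Psmb8, Psmd7 and Psme1 were called in all 3 comparisons with pDC_WT, higher in cDC1 and lower in both cDC2 and pDC_TG. These comparisons share the pDC_WT libraries. The share of all genes called in all 3 was not counted, so this pattern cannot be called particular to these genes.

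**Figure D4:**
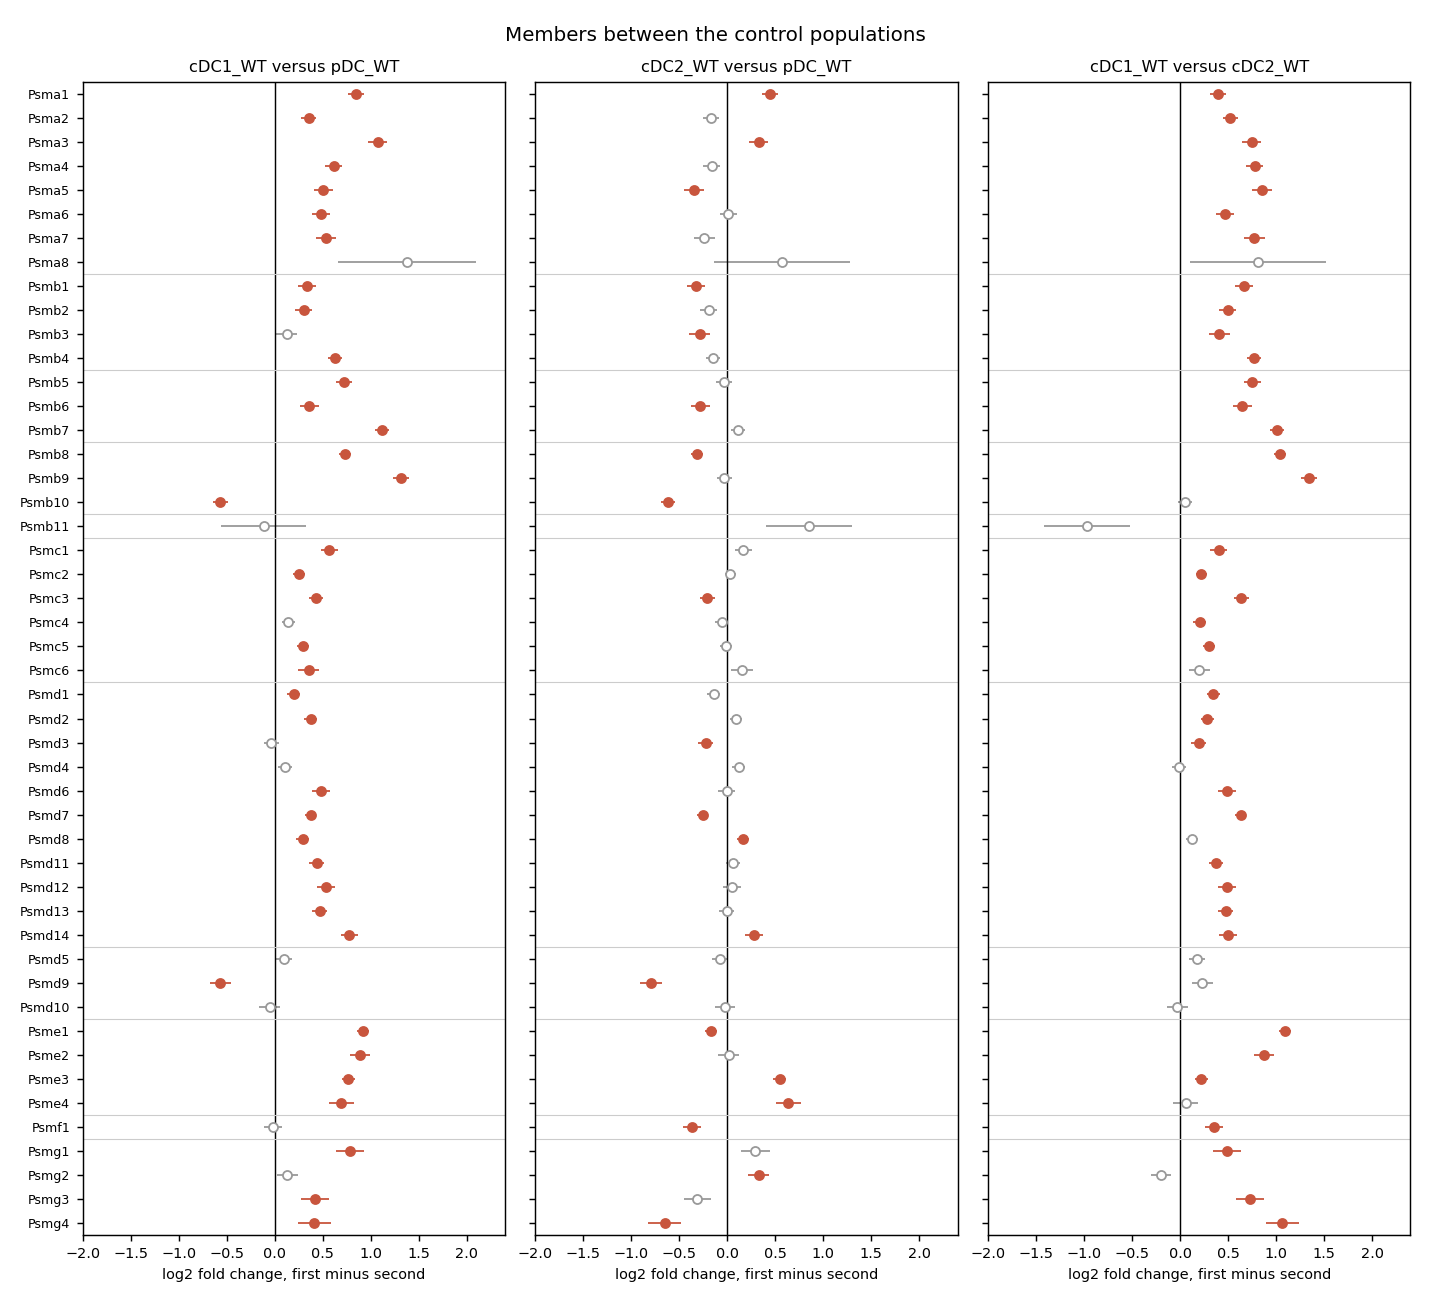
Log2 fold changes of all 48 members on the horizontal axis for cDC1_WT against pDC_WT, cDC2_WT against pDC_WT and cDC1_WT against cDC2_WT, in the same order of roles, with standard error bars and filled points for genes past the test. The points lie mostly to the right of 0 in the panels with cDC1_WT, with Psmb10 and Psmd9 to the left in the first panel.

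The fourth comparison set cDC1_WT against cDC2_WT, both conventional populations. It called 37 members higher in cDC1 and 0 lower, with 11 not passed, or 77.1% of members where 46.2% of all genes tested were called (22.8% higher and 23.4% lower). At an unadjusted p below 0.05, 39 were higher and 1 was lower, and DESeq2 called 36 higher and 1 lower. The median log2FC was 0.48 over the members and -0.01 over all genes. Libraries did not overlap for 22 members, all higher, where 10.4% of all genes were higher and 10.8% lower without overlap (21.2% together).

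Psmb9 (log2FC 1.34 ± 0.08, edgeR adjusted p = 1.23e-14), Psme1 (1.09 ± 0.06, 3.04e-15), Psmb8 (1.04 ± 0.06, 7.32e-15) and Psme2 (0.87 ± 0.11, 4.42e-08) were higher in cDC1 without overlap. Psmb10 was at 204 ± 22.6 and 197 ± 15.7 CPM and did not pass (log2FC 0.05 ± 0.08), and its sign turned with total counts alone. All 3 constitutive catalytic subunits were higher, Psmb7 by 1.01 ± 0.07, Psmb5 by 0.75 ± 0.08 and Psmb6 by 0.65 ± 0.10, with overlap between libraries only for Psmb6. The 14 constitutive 20S subunits were all called higher, among them Psma5 (log2FC 0.85), Psma4 (0.78), Psma7 (0.77), Psmb4 (0.77), Psma3 (0.75), Psmb1 (0.66) and Psma2 (0.53). Outside the core, Psmg4 (log2FC 1.06), the ATPase Psmc3 (0.64) and Psmd7 (0.63) were among the smallest adjusted p.

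Over all 4 groups, cDC1_WT had the highest mean for 40 of the 48 members, and cDC2_WT the lowest for 21, pDC_WT for 15 and pDC_TG for 11. For Psmb9 the order was cDC1_WT, pDC_WT, cDC2_WT and pDC_TG at 908, 365, 357 and 304 CPM, and the neighbours pDC_WT and cDC2_WT did not differ beyond their spread. Psmb8 had cDC1_WT, pDC_WT, cDC2_WT and pDC_TG at 1586, 957, 770 and 743 CPM, and Psmb10 had pDC_WT, pDC_TG, cDC1_WT and cDC2_WT at 302, 254, 204 and 197 CPM, with the cDC groups not told apart. pDC_TG was not tested against the cDC groups. All 48 members passed the filter on low counts, but Psma8, the alpha subunit of germ cells, averaged 0.741 to 3.41 CPM and Psmb11, the thymic subunit, 0.543 to 1.06 CPM over the groups. The summed level of all members was 11618 ± 1072 CPM in cDC1_WT, 7805 ± 569 in pDC_WT, 7380 ± 411 in cDC2_WT and 7363 ± 712 in pDC_TG.

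Per kilobase of transcript, which allows levels of different genes to be set side by side, Psmb8 was the most abundant member in every group. By the longest coding transcript it stood at 974 CPM per kilobase in cDC1_WT, at 588 in pDC_WT, at 473 in cDC2_WT and at 456 in pDC_TG. In pDC_WT, on this per-kilobase scale, its constitutive counterpart Psmb5 stood at 178, Psmb9 at 270 beside Psmb6 at 261, and Psmb10 at 231 beside Psmb7 at 76.9. In cDC1_WT, Psmb9 stood at 671 beside Psmb6 at 335 CPM per kilobase, and Psmb10 at 156 beside Psmb7 at 167. By this length Psmb10 was the only immunosubunit below its counterpart in cDC1_WT. With merged exon lengths Psmb8 remained first in every group, at 469 CPM per kilobase in cDC1_WT. By these lengths Psmb9 in pDC_WT was at 99.8 and Psmb6 at 111, and Psmb10 in cDC1_WT was at 120 and Psmb7 at 56.6. Both orders were thus reversed and depend on the length used. For Psmb5, 88.4% of the transcript has a near-identical copy in the pseudogene Gm3375, and 14.7% of Psmb8 exon bases and 5.79% of Psmb9 exon bases are shared with the antisense gene Gm20496 and with Tap1, as are 25.5% of those of Psmd9 with Gm26745 and 11.8% of those of Psmb7 with Nek6. The library protocol does not mark strand, so such reads cannot be told apart.

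Other genes of the pathway were taken from lists of 32, of which 31 were measured. In pDC_TG against pDC_WT, 2 fell, 0 rose and 29 did not pass with edgeR, where 14.8% of all genes tested were called (DESeq2 called 3 lower and 0 higher, and 2 were higher at an unadjusted p below 0.05). Irf1, an interferon regulatory factor known to drive immunosubunit genes, stood at 186, 216, 179 and 228 CPM in pDC_TG and at 321, 365 and 387 CPM in pDC_WT, with no overlap (log2FC -0.83 ± 0.15, edgeR adjusted p = 2.21e-04). Of the genes that neighbour or control the immunosubunits, Nlrc5 (log2FC -0.32), Tap2 (-0.22) and Tap1 (-0.19) did not pass.

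In cDC1_WT against pDC_WT, 16 of the 31 were higher and 5 lower, where 30.6% and 30.3% of all genes tested were. The peptide transporter genes beside Psmb8 and Psmb9 were higher, Tap1 at 1048 ± 135 against 378 ± 50.8 CPM (log2FC 1.47 ± 0.08) and Tap2 by 1.06 ± 0.13, as was Nlrc5, the activator of MHC class I genes (0.47 ± 0.19). Irf1 was lower in the same comparison (log2FC -0.98 ± 0.12). Pomp, the chaperone that matures the 20S, was at 424 ± 50.9 against 185 ± 23.8 CPM (1.20 ± 0.09). In cDC2_WT against pDC_WT 11 were higher and 7 lower, where 28.8% and 28.3% of all genes were, with Irf1 (-1.23) lower again and Tap1 (0.14) not passed. In cDC1_WT against cDC2_WT 13 were higher and 8 lower, where 22.8% and 23.4% of all genes were, with Tap1 (1.33), Tap2 (1.13), Nlrc5 (0.95) and Pomp (1.21) higher.

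The summed levels of the 20S and 19S genes differed in how steady they were within a group. The summed level of the 14 constitutive 20S subunits had a coefficient of variation of 11.9% among pDC_WT and 15.4% among pDC_TG libraries, 13.1% for cDC1_WT and 7.79% for cDC2_WT. That of the 17 subunits of the 19S was 4.18%, 3.86%, 5.70% and 4.23% in the same order. Gene by gene the 20S and 19S sets were closer, with a median coefficient of variation of 12.5% and 9.73% among pDC_WT, 16.2% and 8.13% among pDC_TG, 13.8% and 8.52% among cDC1_WT and 9.54% and 9.38% among cDC2_WT libraries. As deviations from group means over the 28 libraries, pairs of 20S subunits had a median correlation of 0.78 and pairs of 19S subunits 0.20, given as a description since the genes share each library's preparation and scaling. The summed 20S deviations correlated at 0.74 with the summed 19S level, at 0.77 with the summed level of the 3 immunosubunits, Psme1 and Psme2, at 0.89 with that of Rps27a, which encodes ubiquitin fused to a ribosomal protein, at -0.69 with the summed dissociation genes and at 0.21 with gene counts. Highest in their groups were pDC_WT replicate 8 (3696 CPM summed), pDC_TG replicate 3 (3370), cDC1_WT replicate 7 (5166) and cDC2_WT replicate 8 (3207). The 20S transcripts are also shorter (median of 1163 against 1819 bases), and over the 46 members above 10 CPM the coefficient of variation and transcript length had a Spearman correlation of -0.40 across genes, which are not independent.

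**Figure D5:**
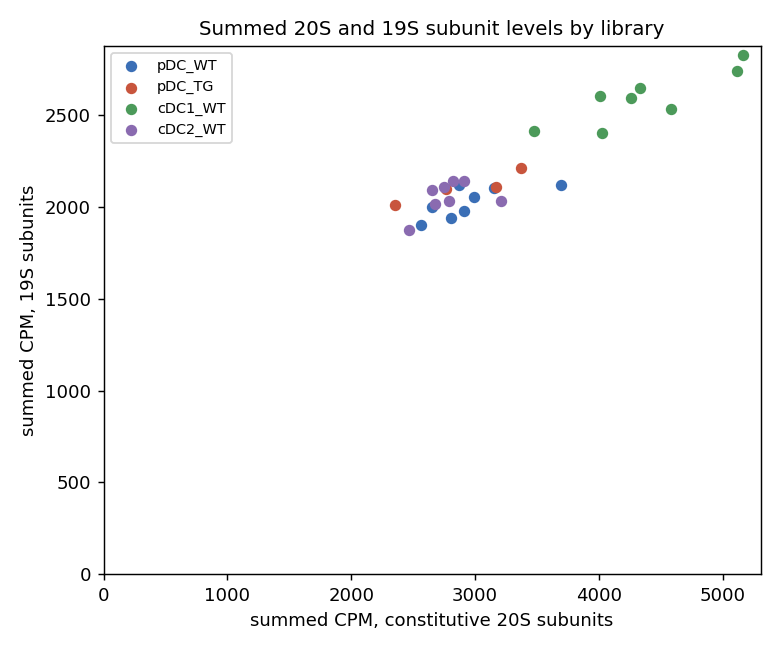
Summed CPM of the 14 constitutive 20S subunits on the horizontal axis against that of the 17 subunits of the 19S on the vertical axis, both from 0, with 1 point a library coloured by group. The cDC1_WT libraries lie at 3478 to 5166 CPM of 20S, a range that pDC_WT replicate 8 enters at 3696 CPM. On the 19S axis they lie above all others, from 2404 CPM, where the highest other library is at 2210 CPM. Within each group the points spread more along the 20S axis than along the 19S axis.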

How the data were processed

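Gene expression was measured in 28 spleen DC libraries made with SMART-Seq v4 from 4 ng of RNA and sequenced as single reads of 75 bp, per the labels' protocols. As deposited by the authors, each file lists raw counts of reads by gene symbol. FastQC 0.11.4, Trimmomatic 0.35, TopHat2 2.1.0, SAMtools 0.1.18 and mouse build mm10 are named in the submitters' processing notes. How reads were counted, and over which annotation, is not given in the sources used here. In each file 5 summary lines were left out, and reads outside genes made up 8.23% to 18.7%. Depth was 17299285 to 30787679 gene counts, and replicates of a group differed by a chi-square of at least 33.6 per degree of freedom, well beyond sampling noise. PCR copies cannot be told from molecules.

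Counts were fitted here in R 4.3.3 with edgeR 4.0.16 over all 28 libraries together (TMM, filterByExpr with a minimum count of 10, robust quasi-likelihood tests, two-sided, adjusted p below 0.05 over 13159 genes), after the scripts were tested on simulated data. Ratios had 0.5 counts added to both genes. Named in each comparison are the 3 immunosubunits, Psme1, Psme2, the 3 constitutive catalytic subunits, up to 10 other members with the smallest adjusted p and members called in all 3 comparisons with pDC_WT. The members, lists, tests and alternatives were chosen with earlier results of these data known. Gene positions and lengths came from the GENCODE annotation of GRCm38 and promoters from RefSeq GRCm38.p6. Alternatives were other scalings, filters, DESeq2 1.42.0, fewer libraries, a replicate block, the odd or even replicate number as a factor and a 1.5-fold threshold. The length of the longest coding transcript was added after seeing the data. Some genes counted among the other pathway genes are not reported here by name.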

Additional observations from a re-analysis of the deposited data

Results flagged for a closer look

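Within groups, 204 sets of values were examined for a library far from the others, and 9 had one; chance gives about 1 in 20 such groups. Single libraries stood high in 7 of the 20S, 19S or activator genes. In cDC2_WT replicate 8, Psma4 was at 176 CPM (others 133 to 145) and Psmb1 at 349 CPM (others 234 to 284). In pDC_WT replicate 8, Psma7 was at 420 CPM (others 245 to 294), and the log2 ratio of Psmb9 to Psmb6 was 0.63 (others 0.78 to 0.90). In pDC_TG replicate 3, Psmc6 was at 103 CPM (others 80.9 to 82.9) and Psmd11 at 89.8 CPM (others 85.7 to 86.3). Psmd6 was at 173 CPM in cDC1_WT replicate 7 (others 117 to 143). Psme1 was at 366 CPM in cDC2_WT replicate 1 (others 270 to 310). Psmc5 was low in cDC2_WT replicate 6, at 76.1 CPM (others 90.2 to 101).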

How the results depend on the processing

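Calls in pDC_TG were few and moved easily. The 1 higher member became 2 with the replicate block, 0 with WT replicates 1 to 4 alone and 0 against a 1.5-fold change, and 0 to 1 leaving out single libraries (0 without pDC_TG replicate 4). The 5 lower members became 3 with total counts alone, 3 with no filter, 3 with both pDC groups alone, 3 or 2 when only WT replicates 1 to 4 or 5 to 8 entered, 0 against a 1.5-fold change, and 3 to 5 leaving out single libraries (3 without pDC_TG replicate 2). For cDC1_WT over pDC_WT, 36 higher became 23 with total counts alone and 10 against 1.5-fold, and 2 lower became 5 and 0. For cDC2_WT, 7 higher became 3 with total counts alone, 3 when only WT replicates 5 to 8 entered and 0 against 1.5-fold, and 13 lower became 25, 5 with WT replicates 1 to 4 alone and 1 against 1.5-fold. For cDC1_WT over cDC2_WT, 37 higher became 10 against 1.5-fold, and 0 lower became 2 with total counts alone, 1 with DESeq2 and 1 when only WT replicates 1 to 4 entered. The 1.5-fold threshold makes fewer calls by construction, and for the other settings the cause was not tested.

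Signs turned for values near 0. In pDC_TG these were Psmb5 (log2FC 0.044 without pDC_TG replicate 1), Psmb6 (-0.081) and Psmb7 (-0.038, both without pDC_TG replicate 3), with ranges leaving out single libraries of -0.12 to 0.044, -0.081 to 0.14 and -0.038 to 0.096. In cDC2_WT over pDC_WT, Psmb9 was 0.0076 when only WT replicates 1 to 4 entered and 0.016 without pDC_WT replicate 1 (-0.068 to 0.016 leaving out single libraries), Psmb5 was 0.015 with WT replicates 1 to 4 alone, Psmb7 was -0.042 with total counts alone, and Psme2 was -0.14 with total counts alone, -0.0047 with WT replicates 1 to 4 alone and -0.0044 to -0.024 without cDC2_WT replicate 7 or 8 or pDC_WT replicate 4 or 6 (-0.015 and -0.019), within a range of -0.024 to 0.059. In cDC1_WT over cDC2_WT, Psmb10 was -0.048 with total counts alone and -0.069 when only WT replicates 1 to 4 entered.

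The labels number the libraries but do not say that a number marks 1 animal. Same-numbered deviations correlated at -0.03 to 0.04 between both pDC groups, where 0 of 4 correlated best with their own number, and at 0.02 to 0.11 between WT groups, where 7 to 8 of 8 did. The main fit did not use these numbers. With the replicate block, Psmb10 passed in pDC_TG (log2FC -0.25, edgeR adjusted p = 0.0311) and Psmd7 did not (-0.21, 0.0744), and no other named member's call changed. In cDC2_WT against pDC_WT, 17 members were lower with the block and 13 without it, and 7 were higher in both fits.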
